A study of Mus musculus with 16 samples.

Results

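The Wnt pathway genes described here are 52 genes named by symbol: every row of both expression tables whose symbol is Wnt, Fzd, Sfrp or Dkk followed by a digit, plus Wif1, Lef1, Tcf7, Tcf7l1, Tcf7l2, Axin2, Znrf3, Rnf43, Nkd1, Notum, Lgr4, Lgr5, Lgr6, Lrp5 and Lrp6. No measured value entered the choice. They are 52 of 55357 gene rows of a whole skin table and of 56953 rows of a table of sorted hair follicle stem cells (HFSC). In HFSC 39 of them, and in skin 44, had enough reads to be tested, and 39 were tested in both. The study asks what the kinase GRK2, which phosphorylates activated G-protein-coupled receptors, does in the homeostasis of the hair follicle. Whole skin came from C57BL/6 mice aged 8 months, with 5 Control libraries and 5 libraries of the genotype GRK2 eKO. HFSC were sorted from skin of C57BL/6 mice as CD34+ α6-integrin+ bulge cells, with 3 Control and 3 GRK2 eKO libraries. The HFSC sample labels give an age of 18 months and the design text of the series 8 months, so that age is not settled. The labels do not spell out eKO, and name no promoter or Cre line, so which cells carry the deletion is not stated in them. The skin libraries are titled by distinct numbers that the labels do not explain, and the labels do not state for either tissue that the libraries of a group came from separate animals; p-values then measure only the spread between these libraries.

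Wnt proteins are secreted, lipid-modified ligands that bind a Frizzled receptor (Fzd genes) together with the co-receptors Lrp5 and Lrp6, which stabilises β-catenin and lets it act with DNA-binding proteins of the TCF and LEF family. Sfrp proteins and Wif1 bind Wnt ligands outside the cell, Dkk1, Dkk2 and Dkk4 bind the co-receptors, and Notum removes the lipid from the ligand. Znrf3 and Rnf43 take Frizzled receptors off the cell surface, and R-spondins, binding Lgr4, Lgr5 or Lgr6, hold these ligases back. In the resting hair follicle the bulge holds stem cells under low Wnt signalling, and a rise of Wnt signalling accompanies the start of hair growth.

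Recovered reads per HFSC library ran from 6.43 M to 6.73 M in control and from 6.43 M to 9.39 M in eKO, and per skin library from 11.6 M to 14.2 M and from 8.21 M to 16.4 M, M being the SI prefix mega. Grk2 itself was at 121 to 144 normalised reads in control HFSC and at 104 to 122 in eKO HFSC (log2 fold change -0.24, limma adjusted p = 0.501), and at 1099.7 to 1492 and 979.7 to 1224 in skin (log2 fold change -0.22, adjusted p = 0.343). The bulge list, Cd34, Itga6, Krt15 and 5 others, was present in all HFSC libraries, its 8 genes summing to 162992 to 166136 in control and 144036 to 164104 in eKO. Summed markers of other cells were higher in every eKO HFSC library than in any control library for hair keratins (208 to 242 against 1528 to 1826, 6 of 6 tested genes higher), sebaceous cells (2131 to 2309 against 11322 to 12270, 6 of 6), differentiated interfollicular epidermis (2430.4 to 4302 against 16131 to 16896, 4 of 5), stressed keratinocytes (4293 to 4616 against 10011 to 10206, 5 of 5), endothelium (56.0 to 71.5 against 1206 to 1369.9, 8 of 9) and leukocytes (292 to 346 against 1233 to 2155, 2 of 4 higher and 1 lower). Of the leukocyte markers, Cd74 was at 122 to 158 in control HFSC and at 787 to 1442 in eKO HFSC. H2-Ab1 was at 98.7 to 128 and at 379 to 652. Lyz2 ran lower, at 44.2 or more in control and at most 19.7 in eKO. Ptprc, Cd3e and Cd207 overlapped between genotypes. Fibroblast markers were mixed: their sum ran from 168 to 189 in control and from 232 to 343 in eKO, but without Thy1 from 134 to 156 and from 84.4 to 134, Col1a2 was at 102 to 140 and at 25.6 to 91.7, and Lum and Dpt were at 0 in all 6 libraries. Every endothelial marker except Tek was below the 10 normalised reads of the filter in a control HFSC library, as were Krt28, Krt35, Cidea, Krt6b and Krt16. These genes were tested only because of their eKO values. Vwf, Emcn and Krt35 were at 0 in every control HFSC library. On the same lists, Tek was at 12.0 to 56.8, Pecam1 at 6.98 to 34.0 and Krt71 at 77.8 to 139 in control. Summed dermal papilla markers were at 95.7 to 112 and 92.7 to 109 (1 of 2 tested genes higher and 1 lower), and melanocyte markers at 191 to 254 and 142 to 174. The Y-linked gene Ddx3y was at 1176 to 1216 in control HFSC and at 359 to 434 in eKO HFSC, and skin control replicate 5 and eKO replicate 3 held almost no reads of 4 Y-linked genes (1.90 and 0.642 summed, against at least 2297 in the other skin libraries). The part of these differences in the results on HFSC was not tested, and in bulk RNA fewer cells of a type and less RNA per cell cannot be told apart.

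Promoter sequences are shown for 4 of the genes that differed in HFSC: Wif1 and Sfrp2, which differed most, and Lef1 and Fzd1, whose windows hold the core motif that TCF and LEF proteins bind. The motif searched was CTTTGA, on both strands, in the 250 bases before each start in a RefSeq table of the mouse build GRCm38.p6 (the expression tables use GRCm39, so these positions are those of the older build). The capitals mark each match, which reads TCAAAG where it lies on the other strand. Sequences run 5′ to 3′ on the strand of the gene.
Wif1, chr10:121033754-121034003, plus strand: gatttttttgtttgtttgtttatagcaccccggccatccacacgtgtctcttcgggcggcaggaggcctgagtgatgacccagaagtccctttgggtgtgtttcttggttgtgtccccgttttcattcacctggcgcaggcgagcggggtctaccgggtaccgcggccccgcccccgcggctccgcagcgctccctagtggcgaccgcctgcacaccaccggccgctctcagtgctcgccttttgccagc
Sfrp2, chr3:83766071-83766320, plus strand: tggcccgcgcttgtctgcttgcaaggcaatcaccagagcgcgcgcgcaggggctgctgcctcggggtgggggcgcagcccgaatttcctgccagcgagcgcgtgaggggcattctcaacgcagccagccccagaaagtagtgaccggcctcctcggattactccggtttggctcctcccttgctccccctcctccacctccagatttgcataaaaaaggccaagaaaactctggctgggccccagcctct
Lef1, chr3:131156044-131156293, plus strand: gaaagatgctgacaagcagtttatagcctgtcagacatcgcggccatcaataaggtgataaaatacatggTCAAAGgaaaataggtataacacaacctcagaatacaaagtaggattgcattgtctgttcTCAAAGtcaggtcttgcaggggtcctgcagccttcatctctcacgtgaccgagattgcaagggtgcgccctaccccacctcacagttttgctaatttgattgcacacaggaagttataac
Fzd1, chr5:4758217-4758466, minus strand: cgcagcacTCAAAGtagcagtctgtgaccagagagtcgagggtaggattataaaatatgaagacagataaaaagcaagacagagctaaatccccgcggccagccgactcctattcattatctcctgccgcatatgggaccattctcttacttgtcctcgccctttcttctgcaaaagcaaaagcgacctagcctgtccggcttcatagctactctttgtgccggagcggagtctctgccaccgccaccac
The Lef1 window holds 2 matches, which begin 180 and 120 bases before the start. This start lies inside the gene, 42438 bases downstream of the nearest start in GENCODE M21, and the other 3 Lef1 windows of the table hold no match. The Fzd1 window holds 1 match, 242 bases before the start, and the Wif1 and Sfrp2 windows hold none. The table has 35 of the 52 genes, and 5 of them have the motif in at least 1 window (Dkk1, Fzd1, Lef1, Wnt11 and Wnt5b), beside 15.8% of all 27025 genes in the table. Of the 16 genes that passed the test in HFSC, 9 are in the table and 2 of these hold the motif. A match is a stretch of letters, not a measured binding site.

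Scaled by gene length, the secreted inhibitors Sfrp1 and Dkk3 stood at the top of the Wnt genes in control HFSC, above the DNA-binding factor gene Tcf7l2 and the stem cell receptor gene Lgr5. Levels between genes are compared here as reads per kilobase of exon per M reads, with exon lengths from GENCODE M21. Sfrp1 was highest at 547 ± 57.3 (SD, n = 3), followed by Dkk3 at 443 ± 14.3, and their libraries did not overlap (504 to 612 and 434 to 460). Next came Tcf7l2, at 107 ± 5.08, and Lgr5, at 107 ± 1.34, whose ranges overlapped. Below them lay Fzd7 at 68.5 ± 5.00, Fzd2 at 60.4 ± 1.09 and Lgr4 at 57.7 ± 4.25, and the ranges of Fzd2 and Lgr4 overlapped. The highest ligand was Wnt10a at 42.7 ± 5.89, followed by Wnt7b at 18.3 ± 3.32. Lef1 was at 2.55 ± 0.316 and Tcf7l1, which is known as a repressor in bulge cells, at 35.1 ± 2.82. Control skin had another order on the same scale: Fzd1 led at 33.5 ± 14.6 (SD, n = 5), followed by Fzd10 at 31.4 ± 10.6, Wnt3 at 27.4 ± 6.20 and Fzd7 at 25.0 ± 4.77, with overlapping ranges, and Lgr5 was 38th at 3.29 ± 1.99. The tables of the tissues were normalised separately, so levels are ordered within a tissue and not tested between them.

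**Figure D1:**
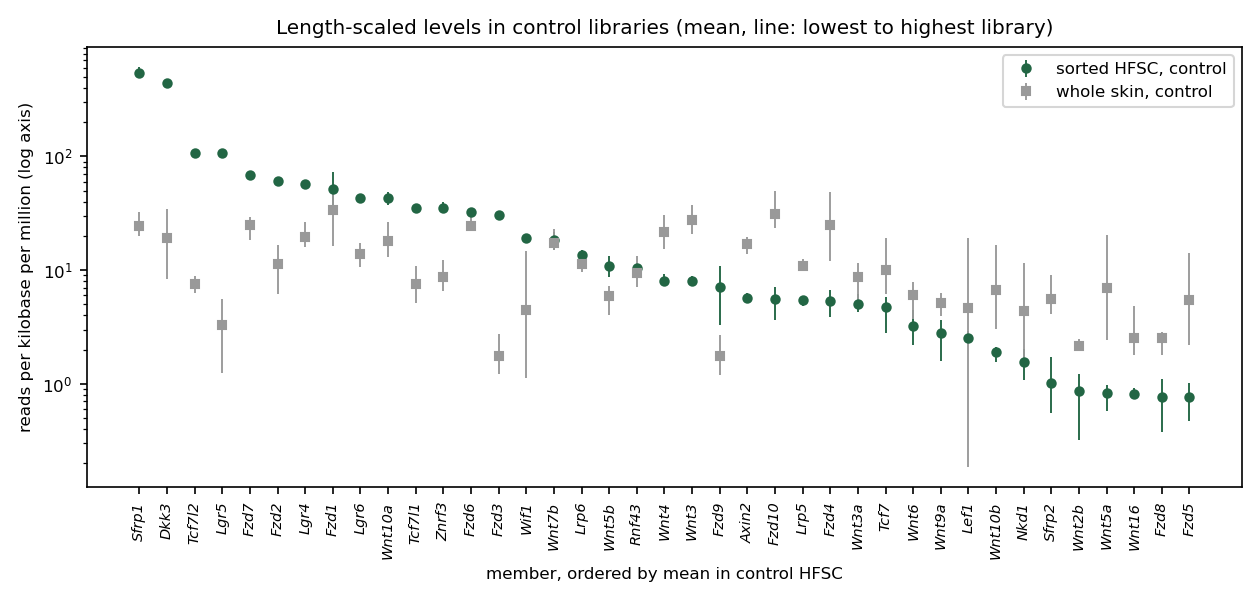
Reads per kilobase per M reads (vertical log axis) of the 39 tested members in control HFSC (circles, 3 libraries) and control skin (squares, 5 libraries), ordered by the HFSC mean. Points are means and lines run from the lowest to the highest library; Sfrp1 and Dkk3 lead in HFSC at 547 and 443, while their skin means are 24.4 and 19.1.

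The low end of the list was made of ligands and inhibitors. No read of Dkk1, Notum, Wnt1, Wnt2, Wnt8a or Wnt9b was counted in any of the 6 HFSC libraries, and 0 reads allow up to 3 reads per library, or 0.320 to 0.467 per M reads (counting error only). Another 7 members, Dkk2, Dkk4, Sfrp4, Sfrp5, Wnt11, Wnt7a and Wnt8b, had at most 12 reads in an HFSC library and were not tested. In skin, 8 members were not tested (Dkk1, Dkk4, Notum, Wnt1, Wnt7a, Wnt8a, Wnt8b and Wnt9b), with at most 62 reads in a library. Wnt2, Wnt11, Dkk2, Sfrp4 and Sfrp5 were therefore tested in skin only.

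In sorted HFSC, 12 Wnt pathway genes rose in eKO and 4 fell. Those that rose were the ligands Wnt3, Wnt5a, Wnt6 and Wnt10a, the receptors Fzd1, Fzd6, Fzd10 and Lgr4, the secreted inhibitors Sfrp2 and Wif1, the ligase gene Znrf3 and the DNA-binding factor Lef1. Those that fell were Lgr5, Lgr6, Fzd3 and Dkk3. The 16 are 41.0% of the 39 tested, beside 19.4% of all 13784 genes tested that passed the same threshold (limma on log2 values, Benjamini-Hochberg adjusted p below 0.05). The 12 that rose are 30.8% of the members, beside 10.7% of all genes, and the 4 that fell are 10.3%, beside 8.74%. The median log2 fold change of the 39 members was 0.20, beside -0.03 over all genes tested. With values scaled by library size alone the split was 10 higher and 6 lower, beside 2799 calls over all genes (2673 in the main fit). The marker sums named above were higher in the same eKO libraries, in which 12 of these genes rose and 4 fell. A link between the sums and these genes was not tested.

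**Figure D2:**
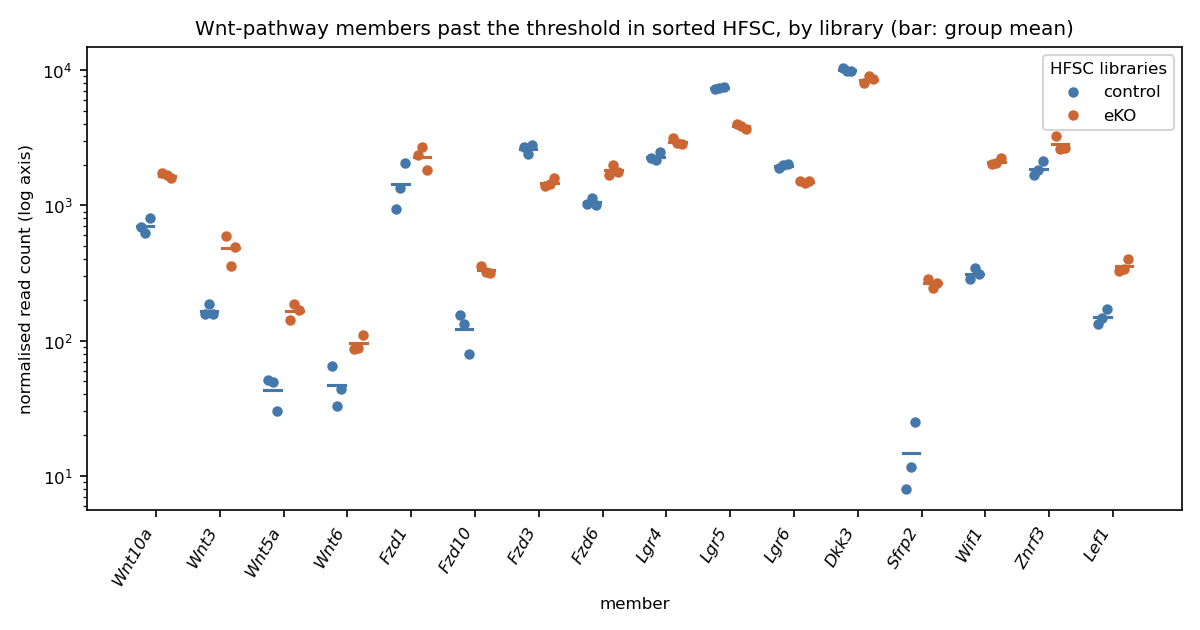
Normalised read count (vertical log axis) of the 16 members that passed the threshold in HFSC, by library (points: 3 control, 3 eKO; bars: group means), grouped by role. All control and eKO points are apart except for Fzd1, whose control range reaches 2064 and whose eKO range starts at 1815. These members were selected by the test on the same libraries, so their separation is not separate support. Fzd2, Nkd1, Rnf43 and Wnt4, which did not pass, were also without overlap, and the share over all genes was not counted.

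Among the ligands, 4 of 12 tested rose and none fell. Wnt10a, a ligand of the β-catenin branch known from hair and tooth development, had 692, 622 and 813 normalised reads in the control libraries and 1723, 1675 and 1587 in the eKO libraries. The groups were well apart, and the log2 fold change was 1.24 (SE 0.12, adjusted p = 1.70e-05). Wnt3, another ligand of that branch, was at 159, 185 and 157 in control and at 591, 356 and 495 in eKO. Every eKO library lay above every control library although the eKO libraries spread widely, and the log2 fold change was 1.49 (SE 0.20, adjusted p = 2.48e-04). Wnt5a, known mainly for signalling that does not use β-catenin, was at 50.9, 49.4 and 30.0 in control and at 141, 187 and 168 in eKO. Its groups did not overlap either, with a log2 fold change of 1.93 (SE 0.30, adjusted p = 7.33e-04). Wnt6 was at 64.8, 32.6 and 44.0 in control and at 87.2, 88.8 and 109.7 in eKO, a log2 fold change of 1.05 (SE 0.34, adjusted p = 0.0465). The groups were apart, but the call ended in 9 of 13 alternatives, among them the omission of control replicate 2 or 3 or of any eKO library (adjusted p from 0.0414 to 0.174 over the alternatives).

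The other 8 ligands tested did not pass. Wnt10b, a close relative of Wnt10a, was at 47.9, 35.8 and 47.0 in control and at 38.7, 95.4 and 73.5 in eKO, with overlapping groups (log2 fold change 0.57, SE 0.39, adjusted p = 0.341). Wnt4 was at 203, 219.8 and 262 in control and at 348, 335 and 281 in eKO, which do not overlap, but its adjusted p was 0.0716. The most abundant ligand after Wnt10a per length, Wnt7b, was at 493 to 714 and at 671 to 897 (adjusted p = 0.156). Wnt2b was at 29.9, 34.7 and 9.0 in control and at 0, 1.10 and 12.8 in eKO (adjusted p = 0.0738), and Wnt9a at 69.8, 35.8 and 81.0 and at 168, 53.7 and 183 (adjusted p = 0.148). Both pairs of groups overlapped, and Wnt2b passed without eKO replicate 3 and Wnt9a without eKO replicate 2. Wnt3a, Wnt5b and Wnt16 had log2 fold changes between 0.07 and 0.19.

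Frizzled receptors moved in both directions: Fzd10, Fzd6 and Fzd1 rose, Fzd3 fell, and 8 of the 12 receptor genes tested did not pass. Fzd3 and Fzd6 are both known for planar cell polarity, and Fzd6 for the orientation of hairs. Fzd3 was at 2696, 2397 and 2797 in control and at 1394, 1434 and 1588 in eKO. All eKO libraries were far below the control libraries, with a log2 fold change of -0.84 (SE 0.10, adjusted p = 8.48e-05). Fzd6 was at 1020.2, 1127 and 1008 in control and at 1682, 1999 and 1766 in eKO. All eKO libraries were above the control libraries, with a log2 fold change of 0.79 (SE 0.11, adjusted p = 2.53e-04). Fzd10 started from a lower level, at 154, 134 and 79.0 in control and 357, 320.1 and 318 in eKO. The groups did not overlap, and the log2 fold change was 1.49 (SE 0.24, adjusted p = 0.00102). Fzd1 was at 938, 1336 and 2064 in control and at 2347, 2681 and 1815 in eKO. The control libraries varied widely and control replicate 3 lay above eKO replicate 3, and the log2 fold change was 0.71 (SE 0.22, adjusted p = 0.0402). That call ended in 8 of 13 alternatives, among them edgeR, DESeq2 and the omission of control replicate 1 or 2 or eKO replicate 1 or 2 (adjusted p from 0.00417 to 0.202).

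Fzd2 and Fzd7, the Frizzled genes with the highest mean per length in control HFSC, did not pass in limma. Fzd2 was at 1457, 1491 and 1517 in control and at 1200.2, 1178 and 1293 in eKO, without overlap (log2 fold change -0.28, adjusted p = 0.0595), and it did pass with DESeq2 and with scaling by library size alone. Fzd7 was at 1907 to 2201 and at 1809 to 1913, with overlap (adjusted p = 0.290). The co-receptors Lrp5, at 316 to 379 and 325 to 382, and Lrp6, at 1161 to 1383 and 988 to 1470.0, had log2 fold changes of -0.04 and -0.00 with 95% intervals of -0.38 to 0.30 and -0.31 to 0.31.

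The 3 R-spondin receptors all passed, and not in the same direction: Lgr5 and Lgr6 fell and Lgr4 rose. Lgr5, which marks stem cells of the lower bulge and hair germ, was at 7251, 7408 and 7469.5 in control and at 3978, 3867 and 3654 in eKO. Both groups were tight and far apart, the eKO mean being 0.519 of the control level (log2 fold change -0.94, SE 0.07, adjusted p = 2.85e-06). Lgr6, which marks stem cells above the bulge, was at 1878, 2004 and 2027 in control and at 1513, 1454 and 1513 in eKO. Its groups did not overlap, and it fell by less (log2 fold change -0.40, SE 0.09, adjusted p = 0.00895, but 0.0543 without control replicate 2). Lgr4, which is broadly expressed in epithelia, was at 2223, 2156 and 2471 in control and at 3136, 2876 and 2863 in eKO. These groups did not overlap either (log2 fold change 0.37, SE 0.09, adjusted p = 0.0119), and the call ended without control replicate 1 or 2 (largest adjusted p 0.0744). Of the 8 bulge markers tested, Itga6, which served for the sort, rose and none fell by the test, while Nfatc1, at 4889 to 5409 in control and 3648 to 4824 in eKO, and Col17a1, at 15835 to 16698 and 14104 to 15461, were lower without overlap.

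The secreted inhibitors Sfrp2 and Wif1 had the largest changes of the 16 genes that passed in HFSC, and Dkk3 the smallest. Wif1, Wnt inhibitory factor, was at 285, 343 and 309 in control and at 2029, 2073 and 2225 in eKO. The eKO level was 6.75 times the control level, with tight groups (log2 fold change 2.75, SE 0.12, adjusted p = 2.66e-08). Sfrp2, a secreted protein with a Frizzled-like Wnt-binding domain, was at 7.98, 11.6 and 25.0 in control and at 287, 243 and 268 in eKO. Every eKO library held at least 243 normalised reads of a gene with at most 25.0 in any control library, 18.6 times the control level (log2 fold change 4.22, SE 0.40, adjusted p = 1.29e-05). Sfrp1, the most abundant member per length, was at 14744, 15527 and 17998 in control and at 19234, 19244 and 17899 in eKO. Control replicate 3 overlapped the eKO group, and limma did not call it (log2 fold change 0.23, SE 0.08, adjusted p = 0.0602), whereas DESeq2 did and so did limma without control replicate 3. Dkk3, a divergent member of the dickkopf family, was at 10347, 9908 and 9811 in control and at 7987, 8978 and 8575 in eKO. It fell slightly, without overlap (log2 fold change -0.24, SE 0.07, adjusted p = 0.0346), and lost the call in 6 of 13 alternatives, among them the omission of any control library or of eKO replicate 3 (adjusted p from 0.0106 to 0.150). Of the 8 fibroblast markers 4 were tested in HFSC, of which 2 were higher in eKO and 0 lower. Dcn was at 0 to 2.99 in control and 19.7 to 28.8 in eKO, and Thy1 at 33.7 to 35.0 and 145 to 209. Dcn was tested only because of its eKO values. Col1a2 ran lower, at 102 to 140 and 25.6 to 91.7, as did Pdgfra, which was not tested, at 4.21 to 22.0 and 0 to 1.10. Lum and Dpt were at 0 in every library. The dermal papilla sums overlapped between genotypes, but Hhip was at 69.4 to 95.7 and 0 to 35.6, and Crabp1 at 15.0 to 34.0 and 66.0 to 86.3. The source of Sfrp2 and Wif1 was not tested.

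Of the feedback genes, Znrf3 rose and Axin2 did not pass. Znrf3 was at 1665, 1819 and 2109.6 in control and at 3246, 2598 and 2652 in eKO, without overlap (log2 fold change 0.60, SE 0.12, adjusted p = 0.00284). Its relative Rnf43 was at 445, 425 and 512 in control and at 329, 299 and 395 in eKO, which also did not overlap but ran the other way without passing (log2 fold change -0.44, adjusted p = 0.0737, though it passed without eKO replicate 3 and with scaling by library size alone). Axin2, which β-catenin signalling induces in many tissues and which then limits it, was at 196, 206 and 232 in control and at 242, 216 and 184 in eKO. Its groups covered the same range, and the 95% interval of its log2 fold change ran from -0.40 to 0.43 around 0.01 (SE 0.19, adjusted p = 0.976). Nkd1 was at 32.9, 49.4 and 62.0 in control and at 19.7, 20.8 and 27.7 in eKO (adjusted p = 0.124).

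Of the 4 DNA-binding factors, Lef1 alone passed the threshold. Lef1, known from hair matrix and hair shaft precursor cells, was at 134, 147 and 171 in control and at 325, 338 and 398 in eKO. The groups were far apart, with a log2 fold change of 1.23 (SE 0.19, adjusted p = 5.81e-04), and the hair keratin sum, 208 to 242 in control and 1528 to 1826 in eKO, moved the same way. Tcf7l2, the most abundant of the 4 per length, was at 6019.6, 6322 and 6644 in control and at 7880.3, 6638 and 7268 in eKO, with overlap by a small margin (log2 fold change 0.20, SE 0.08, adjusted p = 0.115). Tcf7l1 was at 1008, 884 and 889 in control and at 1079, 836 and 759.5 in eKO (log2 fold change -0.07, SE 0.14, adjusted p = 0.772). Tcf7 was at 48.9, 101 and 102 in control and at 81.9, 125 and 207 in eKO (adjusted p = 0.232).

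**Figure D3:**
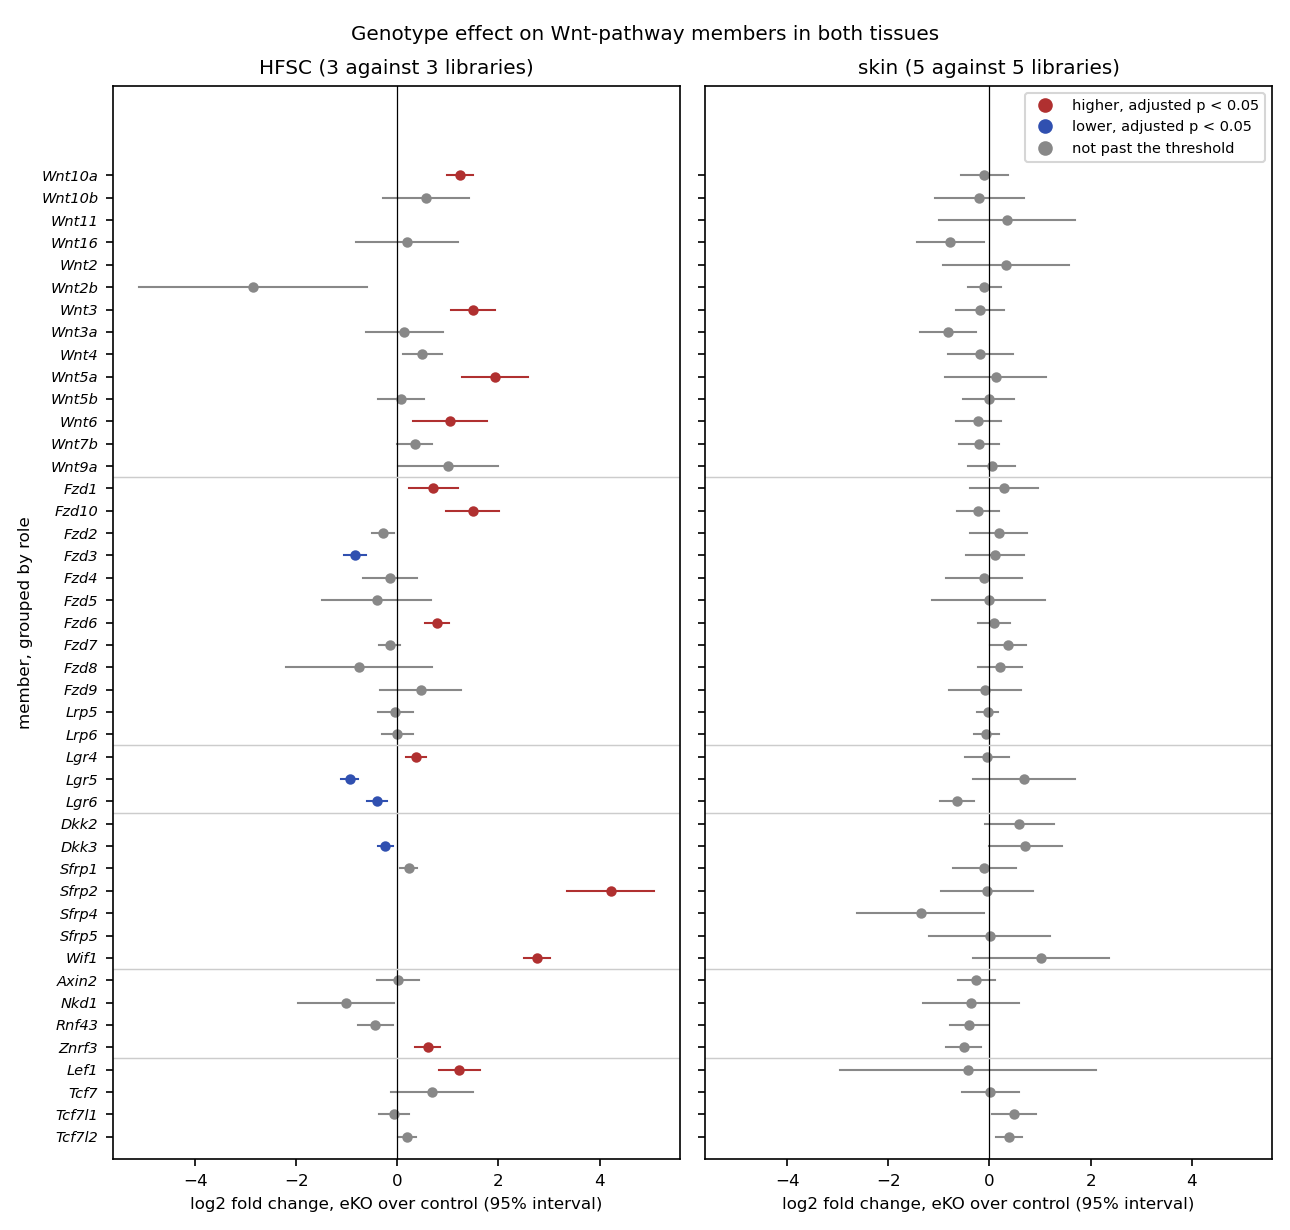
Log2 fold change of eKO over control (horizontal axis) with its 95% interval for each tested member, in HFSC (left, 39 members) and skin (right, 44 members), in blocks from ligands at the top to DNA-binding factors at the bottom. Red and blue points passed the adjusted threshold: 12 higher and 4 lower in HFSC, and 0 in skin.

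Other genes of the pathway, 67 on a separate list, were read in the same fit. In HFSC 54 were tested, of which 10 rose (18.5%, beside 10.7% of all genes) and 6 fell (11.1%, beside 8.74%), with a median log2 fold change of -0.03. Inside the cell, Gsk3b and Csnk1a1, kinases of the β-catenin destruction complex, rose by log2 fold changes of 0.57 (adjusted p = 0.00114) and 0.28 (adjusted p = 0.0279), and Nkd2, the relative of Nkd1, by 1.04. In the nucleus the co-repressor genes split, Tle3 at 0.52 and Tle4 at -0.99, and the β-catenin co-factor Bcl9 fell (-0.76). Of 9 pathway targets listed 5 were tested, and Cd44 (1.14, adjusted p = 1.23e-06) and Myc (0.34) rose. The targets Ccnd1 (0.11), Ascl2 (-0.47) and Msx2 (0.42) did not pass. Of the inhibitors outside the set, Apcdd1 (0.74) rose and Trabd2b, whose product cleaves Wnt ligands, fell (-0.69). Bambi, on the same list but known as an inhibitor of BMP and activin receptors rather than of Wnt ligands, rose (1.15). The R-spondin gene Rspo3 fell, from 42.9, 32.6 and 42.0 normalised reads in control to 14.4, 0 and 0 in eKO (adjusted p = 0.0155). Tspan12, a partner of Fzd4 that is prominent in endothelium, rose from 2.00, 0 and 2.00 to 94.8, 59.2 and 82.0 (adjusted p = 2.35e-04). The endothelial sum was at 56.0 to 71.5 in control and 1206 to 1369.9 in eKO. Tspan12 was tested only because of its eKO values. The receptor gene Ror1 (-0.74) fell, and the polarity genes Celsr2 (0.71) and Daam1 (-0.55) changed in opposite directions. In skin 64 of the 67 were tested and none passed.

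In whole skin no member passed the threshold. The count was 0 of 44, beside 0.374% of all 16589 genes tested (0.229% higher and 0.145% lower), and the members' median log2 fold change was -0.05, beside 0.00 over all genes. At an unadjusted p below 0.05 there were 9 members, 3 higher and 6 lower, beside 14.2% of all genes tested (7.06% higher and 7.09% lower). edgeR called 0 members, and DESeq2 called 1, Lgr6. Lgr6 had the smallest adjusted p in limma as well: its control libraries held 888, 1320.4, 889.7, 1019 and 1324 normalised reads and its eKO libraries 669.7, 792, 669, 546 and 796. The groups did not overlap, and on the log2 scale the eKO mean lay lower by a fold change of -0.64 (SE 0.15, adjusted p = 0.108 in limma and 0.00650 in DESeq2).

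Of the other members with small adjusted p in skin, Tcf7l2 was at 739, 657, 694, 821 and 868 in control and at 902, 895, 1239.9, 977 and 930.1 in eKO. Those groups did not overlap (log2 fold change 0.38, SE 0.12, adjusted p = 0.179). Znrf3 was at 625, 614, 806, 1049 and 820.2 in control and at 464, 587, 522, 647 and 497 in eKO, with overlap (log2 fold change -0.51, adjusted p = 0.183). Wnt3a was at 255, 170.3, 369, 349 and 241 in control and at 136, 161, 117, 126 and 244 in eKO, also with overlap (-0.81, adjusted p = 0.183).

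The largest changes of HFSC had no called counterpart in skin. Sfrp2 was at 159, 109, 120.1, 95.2 and 215 in control skin and at 192, 147, 54.6, 273 and 83.4 in eKO skin. The eKO libraries spread on both sides of the control libraries (log2 fold change -0.05, SE 0.41, adjusted p = 0.969). Wif1 was at 32.2, 51.4, 33.4, 387 and 94.1 in control and at 130.0, 116, 149, 284 and 114 in eKO. All eKO libraries lay above 4 of the 5 control libraries, but control replicate 4 lay above all of them (log2 fold change 1.02, SE 0.61, adjusted p = 0.496). Without that library the value was 1.62 (adjusted p = 0.0963), and edgeR gave 0.38 over all libraries (adjusted p = 0.849). Lgr5 was at 393, 153, 175, 623 and 568 in control and at 618, 318, 1130.1, 406 and 440.2 in eKO, with wide overlap (0.68, SE 0.46, adjusted p = 0.550). Axin2 was at 1225, 907, 1037, 1160.3 and 1110.1 in control and at 1075, 1085, 824, 603 and 1028 in eKO, with overlap (-0.26, SE 0.17, adjusted p = 0.517). The other members named throughout had adjusted p of 0.301 (Tcf7l1), 0.365 (Dkk3), 0.815 (Fzd6), 0.856 (Wnt10b), 0.866 (Wnt10a), 0.900 (Lef1) and 0.904 (Sfrp1). The skin log2 fold change of Lef1 was -0.42 (SE 1.15) in limma, -1.57 in edgeR and DESeq2, and 0.53 without control replicate 4.

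Skin libraries differed in their content of hair keratins, and the level of Lef1 went with it. A hair keratin score, the mean log2(value + 1) of 15 keratin genes of the hair shaft and inner root sheath, ran from 1.25 to 12.57 over control libraries and from 1.83 to 10.68 over eKO libraries. It was taken as a second term beside genotype, and a value is the log2 change of a gene per unit of the score. Lef1 was at 44.5, 19.4, 97.1, 1837 and 259 in control replicates 1 to 5, whose scores were 1.25, 4.06, 8.09, 12.57 and 8.91. It was at 30.3, 100.1, 349, 255 and 35.1 in eKO replicates 1 to 5, whose scores were 1.83, 7.60, 10.68, 9.66 and 2.32. The 6 libraries with a score of 7.60 or more held more Lef1 than the other 4 in both genotypes, and control replicate 4 had both the highest score and the most Lef1. The coefficient of Lef1 was 0.45 per unit (SE 0.07, adjusted p = 0.00706), and it passed in all 14 alternatives, from 0.36 to 0.52, among them the fit without control replicate 4.

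Lef1 was the single member called in that fit, 1 of 44, beside 1.67% of all 16574 genes tested (0.941% higher and 0.724% lower with the score). The next 5 members by p, chosen for display after their values were seen, were Znrf3 (0.05, adjusted p = 0.0779), Fzd4 (-0.11, 0.0961), Tcf7 (0.08, 0.100), Wnt11 (0.19, 0.110) and Sfrp5 (-0.17, 0.119). Znrf3 passed in the fit without eKO replicate 3. Wnt11 was at 102, 149, 116, 880.3 and 182 in control and at 202, 131, 658, 344 and 161 in eKO. With the score as a term, no member passed for genotype.

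**Figure D4:**
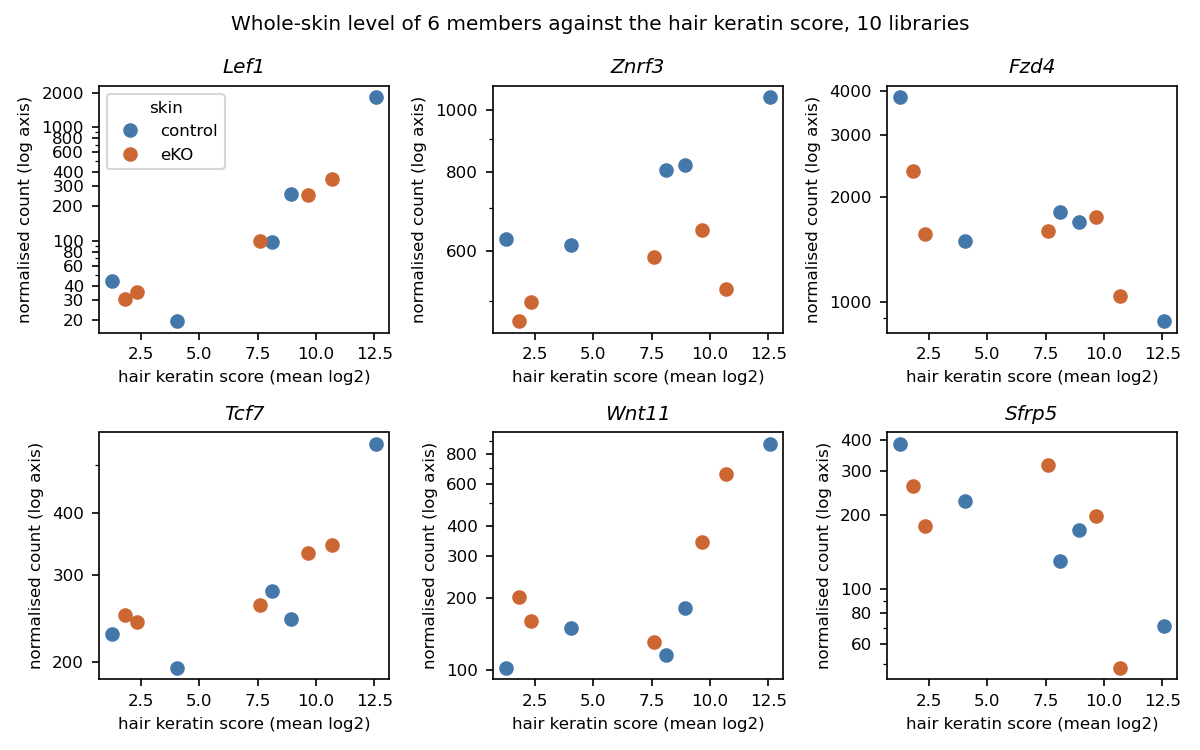
Normalised read count (vertical log axis) of Lef1, Znrf3, Fzd4, Tcf7, Wnt11 and Sfrp5 in the 10 skin libraries against the hair keratin score (horizontal axis, mean log2), with control in blue and eKO in orange. Lef1 runs from 19.4 to 1837, with the highest point in the control library of score 12.57, and Fzd4 and Sfrp5 are low in the libraries of the highest scores.

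The genotype effect itself differed between HFSC and skin for 6 of 39 members, all more positive in HFSC, by an interaction contrast in a single limma fit of both tables. That is beside 5.62% of all 13227 genes tested, 3.44% more positive and 2.18% more negative in HFSC. The tissues differ in age label, RNA kit and normalisation as well, which cannot be told apart from tissue. For Sfrp2 the log2 fold changes were 4.22 in HFSC and -0.05 in skin, a difference of 4.27 (SE 0.63, adjusted p = 6.16e-04). In HFSC Sfrp2 was tested only because of its eKO values. Fzd10, with 1.49 and -0.23, differed by 1.72 (SE 0.32, adjusted p = 0.00427), and Wnt3, with 1.49 and -0.19, by 1.68 (SE 0.32, adjusted p = 0.00537). Wnt10a, with 1.24 and -0.10, differed by 1.34 (SE 0.30, adjusted p = 0.0145).

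Znrf3 had 0.60 in HFSC and -0.51 in skin, a difference of 1.11 (SE 0.23, adjusted p = 0.00950). Wnt6, with 1.05 and -0.22, differed by 1.27 (SE 0.36, adjusted p = 0.0485), but lost the call in 18 of 21 alternatives (adjusted p from 0.0263 to 0.126), among them the omission of any library except skin control replicate 3 and HFSC control replicate 1. Fzd10 was at 914, 992, 1261, 1749 and 947 in control skin and at 735, 1173, 927, 975 and 1097 in eKO skin, and Wnt3 at 766, 903, 1405, 879 and 943 and at 683, 1244, 779, 619 and 1029.6. Wnt10a was at 430.4, 559.9, 803, 467 and 357 and at 388, 588, 412, 419 and 576. In all 3, the skin groups overlapped. For Wif1 (difference 1.74, adjusted p = 0.229), Lgr5 (-1.63, adjusted p = 0.131), Wnt5a (1.81, adjusted p = 0.104), Lef1 (1.65, adjusted p = 0.586, from the limma value in skin) and Axin2 (0.27, adjusted p = 0.566) the difference did not pass. Without skin control replicate 4, which held the most Wnt5a of all skin libraries, Wnt5a and Fzd3 passed as well, Wnt6 did not, and 7 members were called. Dkk3 passed without skin control replicate 1, Wnt2b without HFSC control replicate 3 or eKO replicate 3, and Wnt9a without HFSC eKO replicate 2. Fzd6 passed without skin eKO replicate 3, and also over all libraries when each tissue kept its own spread.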

How the data were processed

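RNA was measured in 16 bulk libraries, and all columns of both deposited tables entered the fits. What the authors deposited is a signal: gene read counts divided by 1 size factor per library, as the steps of the low values show (100% of nonzero values whole within 0.01). The submitters' processing notes name GRCm39 for both tissues, and featureCounts and DESeq2 for skin; aligner, strand and versions are not given in the sources used here, so genes that share reads with copies or antisense genes are uncertain. Symbols come from the GENCODE M21 name list, which matched 94.1% of skin rows and 91.4% of HFSC rows (99.0% and 96.8% of rows with reads).

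Each tissue was fitted with limma 3.58.1 (R 4.3.3), trended prior, on log2(value + 1), which understates changes of low genes, keeping genes that reached 10 normalised reads in enough libraries to fill a group (3 in HFSC, 5 in skin). P-values were adjusted by Benjamini-Hochberg over all genes tested, with a threshold of 0.05. The difference between tissues was a contrast in a fit of 4 group means. Alternatives were pseudocounts of 0.5 and 5, no filter, edgeR 4.0.16 (2609 genes called in HFSC, 54 in skin) and DESeq2 1.42.0 (3016 and 656) on recovered reads, library size alone, a replicate block, a hair keratin covariate, omission of the 2 skin libraries almost without Y-linked reads, and omission of each library. For the difference between tissues, a further alternative kept each tissue's own spread, with the SE of each tissue taken from its own fit. The scripts were tested on simulated data. Members given with full statistics are those past the threshold and a list of 12, in part the same genes, named whatever their values. The members and all lists were chosen with earlier results of these data known. Libraries of a group differed by more than sampling noise.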

Additional observations from a re-analysis of the deposited data

Results flagged for a closer look

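In skin, 1 library stood far from the other 4 of its group in 15 of 88 groups examined (a gene in a genotype). Over all genes tested in skin the share was 8.52% of groups, and chance gives about 1 in 20 for independent normal values, which genes of the same libraries are not. Control replicate 4, the library with the highest hair keratin score (12.57), was the high one in 7 of them (15.9% of the members' control groups, beside 4.37% over all genes): Lef1 at 1837 normalised reads (next 259), Wnt5a at 1727 (next 382), Fzd5 at 1065 (next 312), Wnt11 at 880.3 (next 182), Nkd1 at 571 (next 184), Tcf7 at 551 (next 279) and Wif1 at 387 (next 94.1). Control replicate 3 was high for Lrp5 at 1490.2, Wnt3 at 1405 and Wnt7b at 1379, and control replicate 5, which almost lacks Y-linked reads, for Wnt16 at 233. In the eKO group, replicate 3, which also almost lacks them, was high for Tcf7l2 at 1239.9, Dkk2 at 931 and Fzd2 at 812, and replicate 4 for Wif1 at 284. The part of hair keratin content or of Y-linked reads in these values was not tested beyond the fits given above.

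The genotype effect differed between the tissues for 6 members by the interaction contrast in limma, as HFSC minus skin on the log2 scale: Sfrp2 by 4.27, Fzd10 by 1.72, Wnt3 by 1.68, Wnt10a by 1.34, Wnt6 by 1.27 and Znrf3 by 1.11.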

How the results depend on the processing

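Over the alternatives, the number of members called ran from 11 to 17 in HFSC, from 5 to 7 for the difference between tissues, and was 0 in skin except for 1 with DESeq2. Leaving out 1 library gave 11 members in HFSC without control replicate 2, and 16 at most, without eKO replicate 3. The calls over all genes changed too: 2673 in the main HFSC fit, 1541 without control replicate 2, 2244 without eKO replicate 3 and 3016 with DESeq2. Of the 16 genes called in HFSC, all but Wnt6, Fzd1, Dkk3, Lgr4 and Lgr6 kept their call in each of 13 alternatives. The fit with the replicate number as a replicate block called 15 members in HFSC, gaining Wnt9a and losing Dkk3 and Wnt6. It called 5 for the difference between tissues, losing Wnt6. The deviations of same-numbered HFSC libraries correlated at -0.06, -0.02 and -0.03. With 3 libraries per group these values cannot show whether the numbers pair libraries, and the labels do not state it. For the hair keratin score, 2 members were called with library size alone, and 1 to 2 when 1 library was left out. Without the 2 skin libraries lacking Y-linked reads, 0 members were called, as were 0 of all genes.

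Members that were not called changed sign in some settings, and the cause was not tested. In skin these were Sfrp1 (0.017 with edgeR, 0.020 with DESeq2), Sfrp2 (0.10 and 0.10) and Wnt5a (-0.28 and -0.28), and, without the 2 libraries lacking Y-linked reads, Fzd3 (-0.052), Fzd6 (-0.070), Sfrp2 (0.42) and Wnt5a (-0.066). In HFSC, Axin2 was at -0.057 with library size alone. When 1 library was left out, the log2 fold change in HFSC ran from -0.081 to 0.11 for Axin2 and from -0.21 to 0.038 for Tcf7l1. In skin it ran from -1.10 to 0.53 for Lef1 (-1.57 with edgeR and DESeq2), -0.32 to 0.25 for Sfrp2, -0.34 to 0.044 for Sfrp1, -0.13 to 0.60 for Wnt5a, -0.22 to 0.067 for Wnt10a, -0.39 to 0.19 for Wnt10b, -0.21 to 0.074 for Lgr4, -0.081 to 0.26 for Fzd3 and -0.025 to 0.17 for Fzd6. Depth limits the 6 members without reads in HFSC, for which only the limits above can be given.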
